A study of Mus musculus with 3 samples.

Results

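MMERVK10C is a mouse endogenous retrovirus of the ERVK class, and RLTR10C is the long terminal repeat (LTR) at its ends. The copies described here are the 246 autosomal places in the mm10 genome that matched the RLTR10C-MMERVK10C amplicon of the study at 90% identity or more over 90% or more of its length. They hold 1662 of the 20383623 autosomal CpG sites. DNA methylation was measured by whole-genome bisulfite shotgun sequencing of spermatogonia, which were sorted with an antibody to EpCAM at postnatal day 7 (P7) from C57BL6/J mice. A single file of calls was deposited for each of the 3 genotypes WT, *Pld6* KO and *Dnmt3l* KO, and both mutant lines had been backcrossed to C57BL/6J. The methods of the study describe biological replicates, with heterozygous *Pld6* and *Dnmt3l* mice counted as WT. Which animals a file holds is not given in the sources used here, so each is treated as 1 library.

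An endogenous retrovirus has an LTR at each end, and the 5′ LTR acts as its promoter. LTRs that recombine leave a solitary LTR without the internal region. In fetal male germ cells these sequences are methylated *de novo*, with DNMT3L as a cofactor of the methyltransferases, and PLD6 is a mitochondrial protein required to make piRNAs, the small RNAs that guide methylation to some retrotransposons. The comparison of each KO with WT asks how far the methylation of these copies depended on either gene.

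The amplicon is 285 bp long and has 7 CpG sites. It is shown here, 5′ to 3′ with every CpG in capitals and with the bases that bisulfite had converted put back, because all members were found with it:
RLTR10C-MMERVK10C: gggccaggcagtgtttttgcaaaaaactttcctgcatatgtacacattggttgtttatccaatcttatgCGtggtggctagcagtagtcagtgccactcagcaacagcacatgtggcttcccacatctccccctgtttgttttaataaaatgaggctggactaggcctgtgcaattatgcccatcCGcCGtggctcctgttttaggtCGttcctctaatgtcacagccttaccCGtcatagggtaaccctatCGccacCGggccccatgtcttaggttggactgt

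Only the first 125 bases of the amplicon were LTR. Of 1360 shorter matches that began within its first 10 bases, 977 ended at base 125, where the LTR meets the internal region. A match therefore marks an LTR together with the internal sequence beside it, and a solitary LTR cannot match over the required length. The name "LTR copies" covers the LTR part, which held CpG 1, and not the internal part, which held CpG 2 to 7. For the same reason an intact element held 1 match and not a pair. The rule of pairs on the same strand 4 to 10 kb apart found 1 pair (2 matches) and left 244 matches as solitary, and the pair had no call inside either match. Beside the pair, at 0.5 to 2 kb, 21 of 111 calls were methylated in WT, 108 of 175 in *Pld6* KO and 1 of 34 in *Dnmt3l* KO. This is 1 locus with WT below *Pld6* KO, unlike all matches pooled at that distance, and its other flanks are not given here.

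The LTR part itself was found a second time on the same strand, 4 to 10 kb further on, for 193 of the 246 matches. The median distance was 6669 bp, and the LTRs of an element were 98.6% identical in the median. The other 53 matches divided into 39 with a second LTR at another distance and 14 with none within 15 kb. The letters beside the LTRs set the direction of the elements. The far LTR was followed by TGGTGCCG, whose first letters are those of a retroviral primer-binding site, in 132 of the 193 elements (0.0193% of autosomal windows of the same length). The near LTR was preceded by the purine stretch GGGGGAGA in 169 of the 193 (0.14% of windows). Both motifs were searched on the strand of the element, and in the windows on either strand. Thus the amplicon read against the direction of the element, and the match lay at the start of the 3′ LTR. An element on chromosome 10 whose LTRs were identical over 435 bp shows both borders, with the motif in capitals:
end of the 5′ LTR and first internal bases: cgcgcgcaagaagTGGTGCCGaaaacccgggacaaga
last internal bases and start of the 3′ LTR: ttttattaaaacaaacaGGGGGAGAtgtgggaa

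The matches lay on all 19 autosomes, at 4 to 24 per chromosome, with 130 on the plus strand and 116 on the minus strand. In the GENCODE M21 annotation 27 lay inside a protein-coding gene and 3 overlapped an exon of any gene. The nearest start of a protein-coding gene was 1239 bp to 2403314 bp away, and 6 matches lay within 5 kb of one.

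The depth of the libraries differed. WT, *Pld6* KO and *Dnmt3l* KO had 2.10, 3.08 and 0.926 calls per autosomal CpG site, and the autosomal methylation level, the methylated calls divided by all calls, was 0.704, 0.724 and 0.303. Male germ cells lack methylation at maternally methylated imprinted genes. Within 500 bp of the start of *Kcnq1ot1* WT had 0.0735, *Pld6* KO 0.0681 and *Dnmt3l* KO 0.0164, and near *Peg3* the levels were 0.0692, 0.0359 and 0 (0 of 42 calls, a Wilson upper bound of 0.0838). The annotated start of *Mest* was at 0.96 in WT and that of *Snrpn* at 0.313 over 16 calls, so these starts did not follow the first pair. *Pld6* KO had 0.889 at *Mest* (48 of 54 calls) and 0.682 at *Snrpn* (15 of 22 calls). At the same starts *Dnmt3l* KO had 2 of 11 and 1 of 2 calls methylated. The 4 maternal starts pooled gave 0.156 for WT, 0.178 for *Pld6* KO and 0.0345 for *Dnmt3l* KO. Whether the annotated starts of *Mest* and *Snrpn* lie at the imprinted promoters was not tested. Both were set aside after their values were seen, and the check of the cell type rests on the other genes. At 2 to 4 kb upstream of *H19*, a paternally methylated region, the level was 0.859, 0.884 and 0.148.

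Inside the matches the methylation level was high in WT, somewhat lower in *Pld6* KO and low in *Dnmt3l* KO. WT had 0.838 (1152 of 1374 calls, 95% Wilson interval 0.818 to 0.857), *Pld6* KO 0.727 (1359 of 1869 calls, 0.706 to 0.747) and *Dnmt3l* KO 0.308 (157 of 509 calls, 0.270 to 0.350). The 3 intervals do not overlap. They cover counting error only, and with 1 library per genotype there is no test of genotype, since the effect of a genotype and that of its library cannot be told apart. WT minus *Pld6* KO was 0.111 (95% interval from the spread over 140 loci 0.0731 to 0.149), and WT minus *Dnmt3l* KO was 0.530 (0.477 to 0.583, 135 loci). On the calls, Fisher's exact test (two-sided, Benjamini-Hochberg over 6 tests) gave an adjusted p of 5.07e-14 for WT against *Pld6* KO and 5.3e-104 for WT against *Dnmt3l* KO. They compare libraries and count every call on its own, while 1 read can carry several. The authors state that their earlier work found methylation at MMERVK10C nearly unchanged in *Pld6* KO spermatogonia. The levels here were not compared with the values of that work.

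Fewer of the CpG sites inside the matches were read than of all sites. The shares for WT, *Pld6* KO and *Dnmt3l* KO were 29.9%, 30.7% and 19%, against 69.3%, 77.3% and 49.7% of all autosomal CpG sites. Of the 246 matches, 142 had a call in any library and 104 had none. Those with calls were 96.1% identical to the amplicon in the median and those without were 97.9% identical. In the tertile most like the amplicon 14 of 82 matches had a call, and in the tertile least like it 85 of 93 did. The authors used uniquely mapped reads, so the values describe the copies that differ enough from the others to be read. The level inside did not differ detectably between these tertiles, with an interval of the difference in WT of -0.0444 to 0.164. Next to the threshold of the rule, 4 matches of 90.1% to 90.9% identity had 0.768, 0.538 and 0.368 in WT, *Pld6* KO and *Dnmt3l* KO, and the 1 match of 89.1%, outside it, had 9 of 9, 9 of 13 and 2 of 4 calls methylated.

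The level stayed high in the first 0.5 kb beside the match and was lower beyond it. At 0 to 0.5 kb WT had 0.816 (3435 of 4209 calls), *Pld6* KO 0.737 and *Dnmt3l* KO 0.309. At 0.5 to 2 kb it was 0.695, 0.684 and 0.172, and at 2 to 5 kb 0.684, 0.659 and 0.178. The level inside minus that at 2 to 5 kb was above 0 in all 3 libraries. It was 0.155 for WT (0.0977 to 0.211), 0.0682 for *Pld6* KO (0.00344 to 0.133) and 0.130 for *Dnmt3l* KO (0.0748 to 0.186).

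The difference between WT and *Pld6* KO also left out 0 in the first 0.5 kb. It was 0.0786 at 0 to 0.5 kb (0.0522 to 0.105), 0.0115 at 0.5 to 2 kb (-0.0170 to 0.0400) and 0.0250 at 2 to 5 kb (-0.00384 to 0.0539). At 2 to 5 kb it left out 0 under 2 of 7 alternatives (0.0288, 0.00645 to 0.0511, with matches of 80% identity over 80% of the length, and 0.0352, 0.0201 to 0.0504, as the mean of single copies), and was 0.0153 (-0.00722 to 0.0379) without the locus with the most calls. The difference was larger inside than at 2 to 5 kb by 0.0863 (0.0390 to 0.134). Fisher's exact test on the calls at 2 to 5 kb gave an adjusted p of 5.44e-07, although the interval over loci held 0. The difference of *Dnmt3l* KO from WT was 0.508, 0.523 and 0.506 in the 3 flanks, and that inside exceeded that at 2 to 5 kb by 0.0243 (-0.0436 to 0.0922). For the nearest and the farthest flank the p-values of Fisher's exact test were too small to be held as a number.

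The flanks of a match differ in kind, since the LTR side holds the rest of the 3′ LTR (309 bp in the median) and then host DNA, while the internal side begins with retroviral sequence. At 31 matches the second LTR was under 4 kb away and at 14 none was found, so the internal side at 2 to 5 kb can also hold host DNA. At 0 to 0.5 kb the LTR side had 0.834, 0.747 and 0.333 in WT, *Pld6* KO and *Dnmt3l* KO, and the internal side 0.774, 0.708 and 0.249. At 2 to 5 kb the LTR side, now host DNA, had 0.676, 0.674 and 0.172, with WT and *Pld6* KO 0.00146 apart (-0.0273 to 0.0302). The internal side at that distance had 0.7, 0.629 and 0.191, with WT above *Pld6* KO by 0.0714 (0.0135 to 0.129). That difference was 0.0437 (0.0133 to 0.0740) without the locus with the most calls there, around chr5:26074605-26074889, where 214 of 342 calls were methylated in WT and 155 of 599 in *Pld6* KO. The sides were split after the data were seen.

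**Figure D1:**
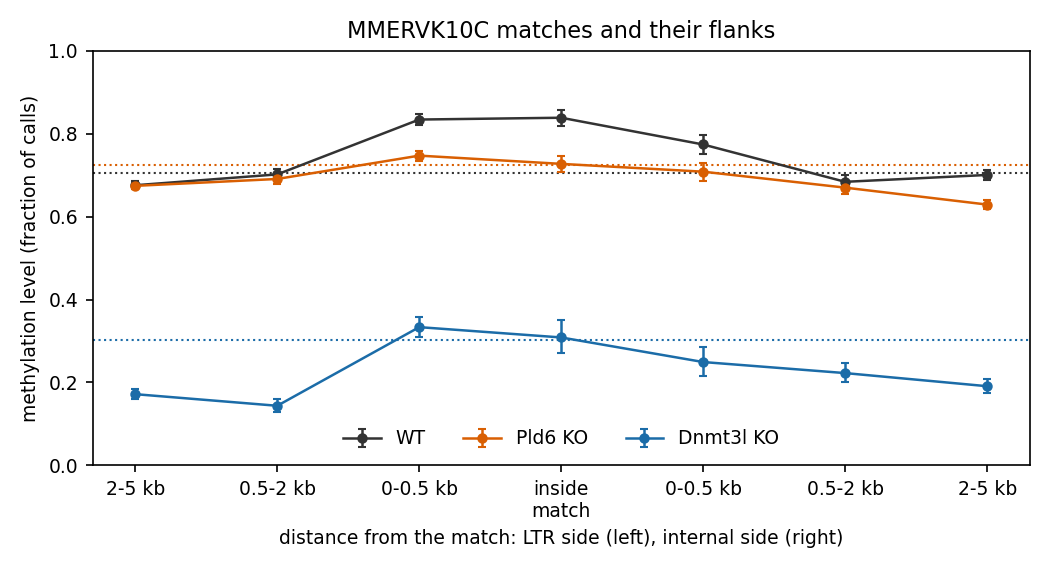
Methylation level (fraction of calls, y axis) inside the 246 matches and at 3 distances on the LTR side (left) and the internal side (right), with 95% Wilson intervals, for WT, *Pld6* KO and *Dnmt3l* KO. Dotted lines are the autosomal levels (0.704, 0.724 and 0.303), and WT rises above its line inside the match (0.838) and in the nearest flanks.

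The whole elements were then laid out in their own direction, an analysis added after the data were seen. It used the 160 elements whose LTR was 350 to 550 bp long. In WT the 3′ LTR had 0.866 (1255 of 1450 calls) and the 5′ LTR 0.795 (1136 of 1429 calls), and 5′ minus 3′ was -0.0706 (-0.122 to -0.0188). *Pld6* KO had 0.770 and 0.741 at the same LTRs, and *Dnmt3l* KO 0.357 and 0.347, and in both libraries the interval of the difference between the LTRs held 0. The internal region was less methylated than the LTRs in every library, with 0.734, 0.685 and 0.246 for WT, *Pld6* KO and *Dnmt3l* KO against 0.830, 0.758 and 0.352 in the LTRs together. The difference in WT was -0.0963 (-0.129 to -0.0639).

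Within the internal region the level was lowest in the middle. Its 5′ part, taken as the first of 3 equal parts, had 0.782, 0.707 and 0.280 in WT, *Pld6* KO and *Dnmt3l* KO. The middle part had 0.654, 0.610 and 0.178, and the 3′ part 0.738, 0.701 and 0.254. In each of the 3 parts *Pld6* KO was below WT by an interval that left out 0, with differences of 0.0752, 0.0436 and 0.0363.

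In every library the host DNA in the nearest 0.5 kb had a higher level than that at 2 to 5 kb. No interval was computed for this difference. In the 0.5 kb before the 5′ LTR WT, *Pld6* KO and *Dnmt3l* KO had 0.837, 0.780 and 0.270, and in the 0.5 kb after the 3′ LTR 0.793, 0.705 and 0.207. At 2 to 5 kb the host DNA had 0.662, 0.687 and 0.197 before the element and 0.669, 0.651 and 0.185 after it. *Pld6* KO was below WT by 0.0577 (0.00839 to 0.107) before and by 0.0886 (0.0403 to 0.137) after the element in the nearest 0.5 kb. Over all host DNA within 5 kb the difference was 0.00324 (-0.0173 to 0.0238). The difference from WT in the LTRs minus that in the host DNA was 0.0690 for *Pld6* KO (0.0334 to 0.105) and -0.0343 for *Dnmt3l* KO (-0.0989 to 0.0303).

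**Figure D2:**
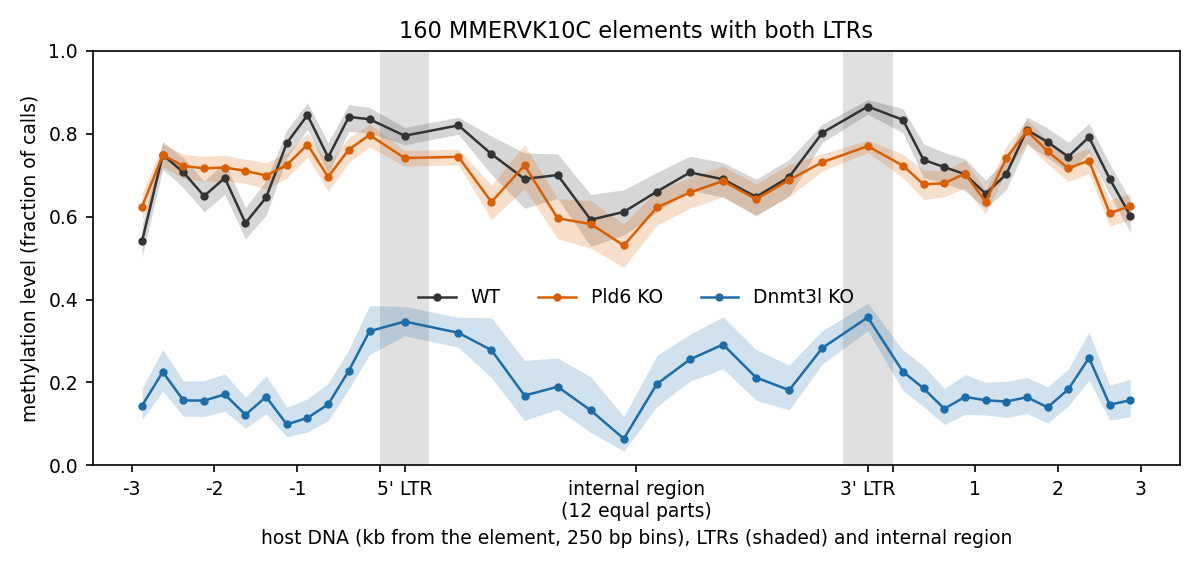
Methylation level (fraction of calls, y axis) along 160 elements drawn 5′ to 3′ (x axis: host DNA in kb from the element in bins of 250 bp, LTRs shaded, internal region in 12 equal parts), with 95% Wilson bands, for WT, *Pld6* KO and *Dnmt3l* KO. WT lies above *Pld6* KO over the LTRs (0.795 against 0.741 and 0.866 against 0.770) and the host DNA next to them. It does so also in parts of the internal region, such as 0.751 against 0.635. The bands separate the other way in some host bins before the element (largest gap 0.584 against 0.710). *Dnmt3l* KO lies below both over the whole stretch.

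A search with the whole LTR of 435 bp (11 CpG sites) from the element on chromosome 10 can also reach solitary LTRs. This search was added after the data were seen. It found 558 autosomal LTRs at the same thresholds, of which 196 formed 98 pairs and 362 had no partner 4 to 10 kb away and are called solitary here. Of the solitary LTRs 44 lay in a match to the amplicon and so stood beside internal sequence, and 318 lay in no match. A match marks the 3′ LTR only, and a partner below the thresholds was not counted. The 318 can therefore include LTRs of elements with an internal region, and how many do was not tested. In WT the solitary LTRs had 0.863 and the paired LTRs 0.870, a difference of 0.00656 (-0.0242 to 0.0373). In *Pld6* KO they had 0.760 and 0.792. In *Dnmt3l* KO the solitary LTRs had 0.217 (547 of 2522 calls) and the paired LTRs 0.354 (256 of 724 calls), so that the paired LTRs were higher by 0.137 (0.0704 to 0.203). The decrease from WT to *Dnmt3l* KO was accordingly smaller at paired LTRs, 0.516 against 0.646 (difference -0.130, -0.198 to -0.0625). The decrease to *Pld6* KO was 0.0780 at paired and 0.103 at solitary LTRs (difference -0.0251, -0.0686 to 0.0184).

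The paired LTRs were closer to the query than the solitary ones, with a median identity of 96.3% against 94.7%. Among LTRs of 95% identity or more, 160 paired and 154 solitary, *Dnmt3l* KO had 0.350 and 0.234, a difference of 0.116 (0.0371 to 0.195). In this subset the decrease to *Pld6* KO was also smaller at the paired LTRs (-0.0578, -0.111 to -0.00429). Within the pairs the 3′ LTR had 0.892, 0.817 and 0.413 in WT, *Pld6* KO and *Dnmt3l* KO, and the 5′ LTR 0.847, 0.741 and 0.268. No interval was computed for the difference between these ends. In the 160 elements above, the 3′ LTR had 0.866, 0.770 and 0.357 and the 5′ LTR 0.795, 0.741 and 0.347. The 318 solitary LTRs outside the matches to the amplicon had 0.876, 0.767 and 0.206. The paired LTRs differed from these by -0.00617 in WT (-0.0372 to 0.0249). For *Pld6* KO this difference was 0.0244 (-0.0185 to 0.0674), and for *Dnmt3l* KO 0.147 (0.0806 to 0.214). The 140 LTRs that lay in a match to the amplicon had 0.835, 0.775 and 0.391. They differed from the 318 by -0.0405 in WT (-0.0794 to -0.00165) and by 0.00748 in *Pld6* KO (-0.0404 to 0.0553). In *Dnmt3l* KO they were higher by 0.185 (0.116 to 0.254). Their decrease from WT was smaller by an interval that left out 0 for *Pld6* KO (-0.0480, -0.0942 to -0.00172) and for *Dnmt3l* KO (-0.225, -0.297 to -0.154).

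The 7 CpG positions of the amplicon were kept in most copies but not all. CpG 1, in the LTR part, was CG in 147 of 246 copies, TG in 26 and CA in 69, and CpG 2 to 7 were CG in 81.3% to 89.4% of copies. TG and CA are what a methylated CG becomes when its cytosine, on one strand or the other, is replaced by T. The level differed by position in every library. In WT it was 0.786, 0.852, 0.797, 0.615, 0.877, 0.920 and 0.908 at CpG 1 to 7, over 117 to 212 calls each. CpG 4 was the lowest, with a Wilson interval of 0.535 to 0.689 that lay below those of the other 6.

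*Pld6* KO followed the same outline at a lower level. Its 7 values were 0.686, 0.772, 0.717, 0.528, 0.743, 0.837 and 0.842, each below WT by 0.0654 to 0.134. The interval of that difference over loci left out 0 at CpG 5, CpG 6 and CpG 7. In *Dnmt3l* KO the 7 values were 0.4, 0.328, 0.323, 0.0448, 0.145, 0.397 and 0.607, over 30 to 83 calls. CpG 4 kept 3 of 67 calls methylated and CpG 7 kept 34 of 56. In the 16 copies with *Dnmt3l* KO calls at both positions, 0 of 31 calls were methylated at CpG 4 (upper bound 0.110) and 22 of 33 at CpG 7.

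The bases beside a CpG differ between the positions, and autosomal CpG sites with the same 2 bases on each side were set beside them. For CpG 4 (gtCGtt) these 136019 sites had 0.719, 0.736 and 0.138 in WT, *Pld6* KO and *Dnmt3l* KO, the lowest *Dnmt3l* KO level of the 7 contexts. For CpG 7 (acCGgg) they had 0.680, 0.7005 and 0.183, so the copies stood above the autosomal level of that context in all 3 libraries. At CpG 5 (ccCGtc) the autosomal sites had 0.740, 0.7499 and 0.443, and the copies were above that in WT and below it in *Dnmt3l* KO. The contexts were compared after the data were seen.

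**Figure D3:**
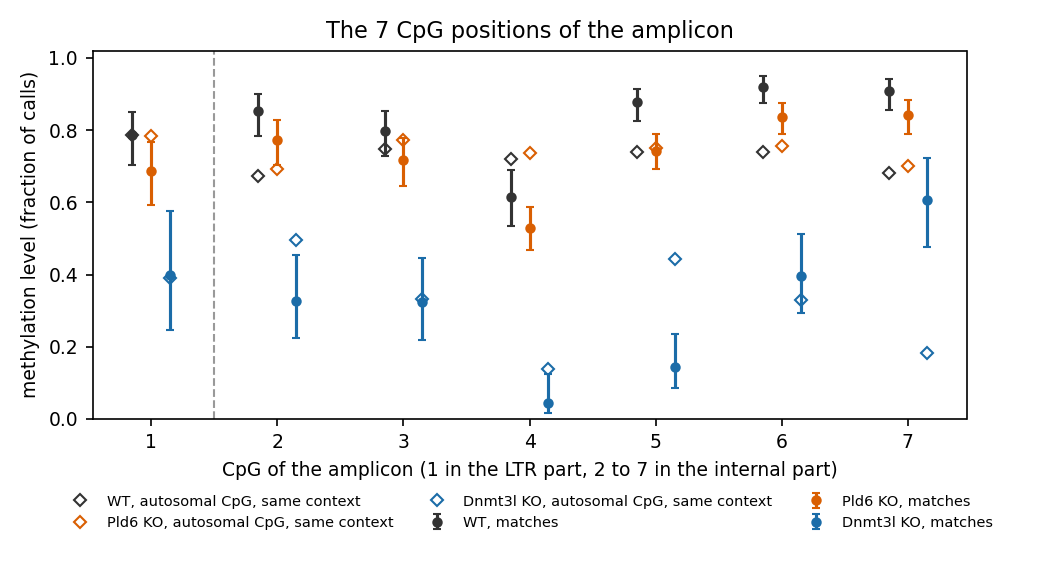
Methylation level (fraction of calls, y axis) at CpG 1 to 7 of the amplicon (x axis) with 95% Wilson intervals, and as open diamonds the level of all autosomal CpG sites with the same 2 bases on each side, for WT, *Pld6* KO and *Dnmt3l* KO. CpG 4 is lowest in all libraries (0.615, 0.528 and 0.0448), and CpG 7 is highest in *Dnmt3l* KO (0.607).

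Both parts of the match were lower in the KO libraries. The LTR part had 0.844, 0.714 and 0.286 in WT, *Pld6* KO and *Dnmt3l* KO, and the internal part 0.837, 0.730 and 0.312. These levels pool every CpG of the copies placed in that part, also those that the amplicon lacks. The decrease in *Pld6* KO was 0.131 (0.0560 to 0.205) in the LTR part and 0.108 (0.0631 to 0.152) in the internal part. The 53 matches without a second LTR at 4 to 10 kb had 0.893 in WT, above the 0.817 of the 193 with one (difference of with minus without -0.0757, -0.127 to -0.0239). In *Pld6* KO these had 0.733 and 0.725, and in *Dnmt3l* KO 0.331 and 0.298.

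In WT and *Pld6* KO the level inside differed with the surroundings of the copies, by splits made after the data were seen. In the tertile of matches with the lowest GC content over 100 kb (35.4% to 39.5%), WT had 0.778 inside, *Pld6* KO 0.603 and *Dnmt3l* KO 0.257. In the tertile with the highest GC content (42.8% to 51.9%) it was 0.911, 0.855 and 0.367. The highest tertile was above the lowest by 0.133 in WT (0.0746 to 0.190) and by 0.252 in *Pld6* KO (0.177 to 0.327), and the decrease from WT to *Pld6* KO was smaller there (highest minus lowest -0.119, -0.199 to -0.0398). The *Dnmt3l* KO level differed by 0.110 between these tertiles (-0.0145 to 0.235), and its decrease from WT by 0.0224 (-0.107 to 0.152). At 2 to 5 kb on the LTR side the highest tertile was above the lowest by 0.126 in *Dnmt3l* KO (0.0795 to 0.172). There the difference was 0.0464 in WT (-0.0875 to 0.180) and 0.0688 in *Pld6* KO (-0.0429 to 0.180). Matches inside protein-coding genes, 13 of 27 with calls, had 0.969, 0.892 and 0.385 and were above those outside by 0.144 in WT (0.0822 to 0.205) and by 0.185 in *Pld6* KO (0.116 to 0.253). In *Dnmt3l* KO this difference was 0.0873 (-0.114 to 0.288). Whether GC content or genes carried these differences was not tested.

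Single copies spread widely. Among copies with at least 5 calls, WT ran from 0.333 to 1 with a median of 0.875 (94 copies), *Pld6* KO from 0 to 1 with a median of 0.75 (99 copies), and *Dnmt3l* KO from 0 to 0.667 with a median of 0.222 (39 copies). In WT 65 of 94 copies had 0.8 or more and none had 0.2 or less. In *Dnmt3l* KO none of 39 had 0.8 or more, and 19 had 0.2 or less.

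A decrease of 0.3 or more from WT was found in 15 of 82 copies in *Pld6* KO (18.3%, Wilson interval 11.4% to 28.0%). Of autosomal windows of 300 bp with the same minimum of calls, 4.76% had such a decrease. Raising the minimum to 10 calls left 7 of 44 copies (15.9%) against 2.78% of windows. In *Dnmt3l* KO 29 of 33 copies had it (87.9%, 72.7% to 95.2%), against 64.2% of windows, but with at least 3 calls the share was 72.1% (44 of 61) against 66.1%. The median difference of WT minus KO was 0.0998 over the 82 copies and 0.571 over the 33, against 0 and 0.429 over the windows. The 15 copies lowered in *Pld6* KO lay on 9 chromosomes, and 10 of them were in the lowest GC tertile, 4 in the middle and 1 in the highest. Of the 67 other copies 20, 22 and 25 were in those tertiles. A second LTR 4 to 10 kb away was present at 7 of the 15 and at 52 of the 67. These copies were chosen by their difference, so the counts are a description.

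Of the 82 copies 55 were below WT in *Pld6* KO, 19 were above it and 8 were equal to it, whereas 45.2% of the windows were below WT and 39.2% above it. An increase of 0.3 or more was found in 2 of the 82 copies and in 4.98% of windows. Named after their values were seen, these had 2 of 6 calls methylated in WT and 6 of 6 in *Pld6* KO at chr1:48979863-48980146, and 4 of 8 and 4 of 5 at chr2:5774746-5775025. In *Dnmt3l* KO 4 of the 33 copies were not lower by 0.3, and the 1 of them that was not below WT had 13 of 22 calls methylated in WT and 3 of 5 in *Dnmt3l* KO (chr2:111021399-111021682).

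**Figure D4:**
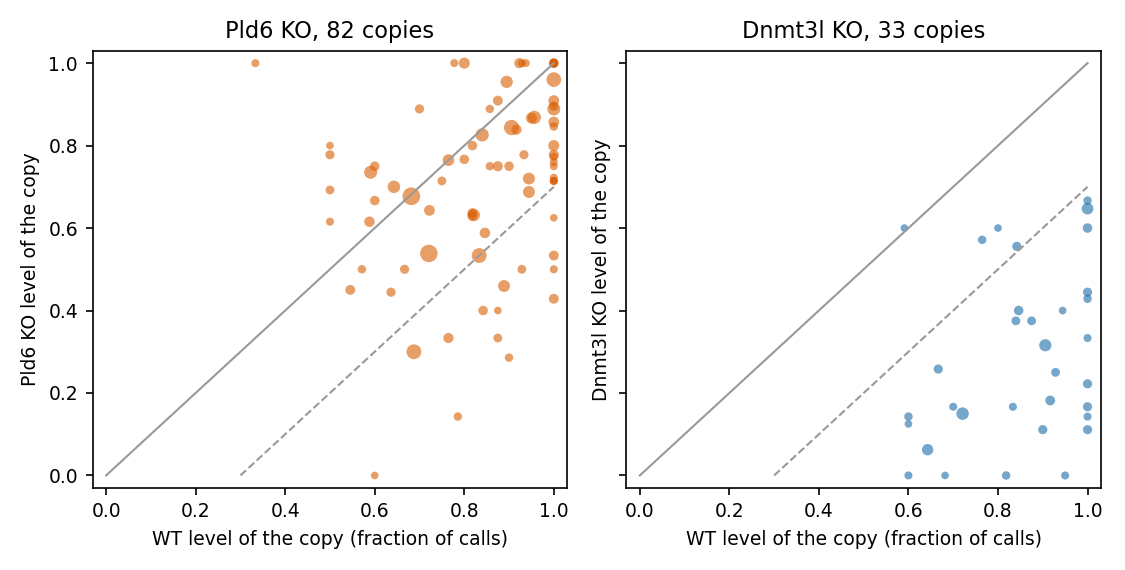
Level of each copy in *Pld6* KO (left, 82 copies) and *Dnmt3l* KO (right, 33 copies) on the y axis against its WT level on the x axis, for copies with at least 5 calls in both libraries, with larger points for more calls. The solid line is equality and the dashed line a decrease of 0.3, with 15 of 82 copies at or below it in *Pld6* KO and 29 of 33 in *Dnmt3l* KO.

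The 10 copies with the most calls in their shallowest library show the spread at single copies. They were chosen by depth, and whether reads from other copies were mapped to them was not tested. The deepest, at chr8:5569559-5569841 outside protein-coding genes, had 31 of 43 calls methylated in WT (0.721), 35 of 65 in *Pld6* KO (0.538) and 3 of 20 in *Dnmt3l* KO (0.15). The copy at chr4:141798750-141799034, in an intron of *Casp9*, the initiator caspase of the mitochondrial pathway, had 29 of 29 (1), 48 of 50 (0.960) and 11 of 17 (0.647). The *Casp9* copy was the highest of the 10 in both KO libraries, and the deepest copy was the second lowest in both WT and *Pld6* KO. Both sequences are shown on the strand of the amplicon, with CpG in capitals, since they set the deepest copy and the copy highest in both KO libraries side by side:
chr8:5569559-5569841 (plus strand): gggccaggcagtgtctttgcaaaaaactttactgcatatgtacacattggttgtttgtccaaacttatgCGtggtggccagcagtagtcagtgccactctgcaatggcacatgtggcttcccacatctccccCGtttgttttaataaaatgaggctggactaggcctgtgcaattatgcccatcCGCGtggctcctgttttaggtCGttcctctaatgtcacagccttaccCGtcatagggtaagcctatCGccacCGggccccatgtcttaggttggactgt
chr4:141798750-141799034 (plus strand): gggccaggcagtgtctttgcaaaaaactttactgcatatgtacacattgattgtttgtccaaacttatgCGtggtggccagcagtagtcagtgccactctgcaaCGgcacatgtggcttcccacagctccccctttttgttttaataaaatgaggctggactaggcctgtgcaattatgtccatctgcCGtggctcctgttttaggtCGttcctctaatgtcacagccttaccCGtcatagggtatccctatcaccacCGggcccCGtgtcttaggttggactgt

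The copy at chr5:26074605-26074889 had 48 of 53 calls methylated in WT, 27 of 32 in *Pld6* KO and 6 of 19 in *Dnmt3l* KO. In an intron of *Psmd9*, a chaperone of proteasome assembly, the copy at chr5:123205505-123205774 had 9 of 9, 43 of 48 and 3 of 18. At chr4:15750904-15751188 the counts were 18 of 28, 14 of 20 and 1 of 16, and this was the 1 copy of the 10 with a higher level in *Pld6* KO (0.7) than in WT (0.643). The copy at chr6:3058644-3058929 had 16 of 19, 4 of 10 and 5 of 9, the lowest *Pld6* KO level of the 10 (0.4, interval 0.168 to 0.687). The remaining 4 copies ranged from 0.846 to 1 for WT, 0.588 to 0.839 for *Pld6* KO and 0.111 to 0.4 for *Dnmt3l* KO. All 10 were lower in *Dnmt3l* KO than in WT.

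The study names several genes beside RLTR10 or MERVK copies, and a match was looked for inside each or within 100 kb upstream. Such genes were listed for their expression in mutant spermatocytes, which is not analysed here. *Olfr1372-ps1*, an olfactory receptor pseudogene on chromosome 11, held a match at chr11:52157531-52157828 with 14 of 16 calls methylated in WT, 9 of 12 in *Pld6* KO and 0 of 3 in *Dnmt3l* KO. Its flanks within 0.5 kb had 35 of 38, 57 of 67 and 10 of 18. The match 10609 bp upstream of *2310043L19Rik*, at chr1:177653552-177653836, had no call inside, and its flanks at 0.5 to 2 kb had 16 of 17, 18 of 25 and 1 of 5. No match by the rule lay there for *Cd300c*, *Tmc2*, *Srgap1*, *Defb15* or *3110057O12Rik* (now *Abhd18*), so these genes have no value here.

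The LTR amplicons IAPLTR1_MM, RLTRETN_Mm and MT2-MERVL of the study were taken through the same steps. In WT the level inside was 0.850 at 1398 matches to IAPLTR1_MM, 0.792 at 354 matches to RLTRETN_Mm and 0.832 at 1725 matches to MT2-MERVL, beside 0.838 at MMERVK10C. In *Pld6* KO it was 0.675, 0.398 and 0.799, beside 0.727. In *Dnmt3l* KO it was 0.248, 0.132 and 0.301, beside 0.308. The decrease in *Pld6* KO was 0.175 at IAPLTR1_MM, 0.394 at RLTRETN_Mm and 0.0327 at MT2-MERVL, beside 0.111 at MMERVK10C.

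That decrease was smaller at MMERVK10C than at RLTRETN_Mm, the LTR of the early transposon ETn (difference -0.283, -0.341 to -0.225), although 1 alternative widened the interval past 0. It was 0.0786 larger than at MT2-MERVL (0.0308 to 0.127), under every alternative that was run. Against IAPLTR1_MM, an LTR of the intracisternal A particle, it was smaller (difference -0.0633, -0.122 to -0.00443), but the interval held 0 under 4 of 7 alternatives, and with matches of at least 95% identity the difference had the opposite sign (0.0113, -0.0732 to 0.0959). In *Dnmt3l* KO the decrease was smaller than at RLTRETN_Mm (difference -0.130, -0.195 to -0.0654), but the difference was -0.0268 (-0.0757 to 0.0221) when matches of 80% identity over 80% of the length were used. Against IAPLTR1_MM and MT2-MERVL the intervals held 0 (-0.153 to 0.00904 and -0.0678 to 0.0650). The amplicons cover different parts of an LTR and its internal region, and 5.56% to 32.3% of the CpG sites of these other matches were read in WT.

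**Figure D5:**
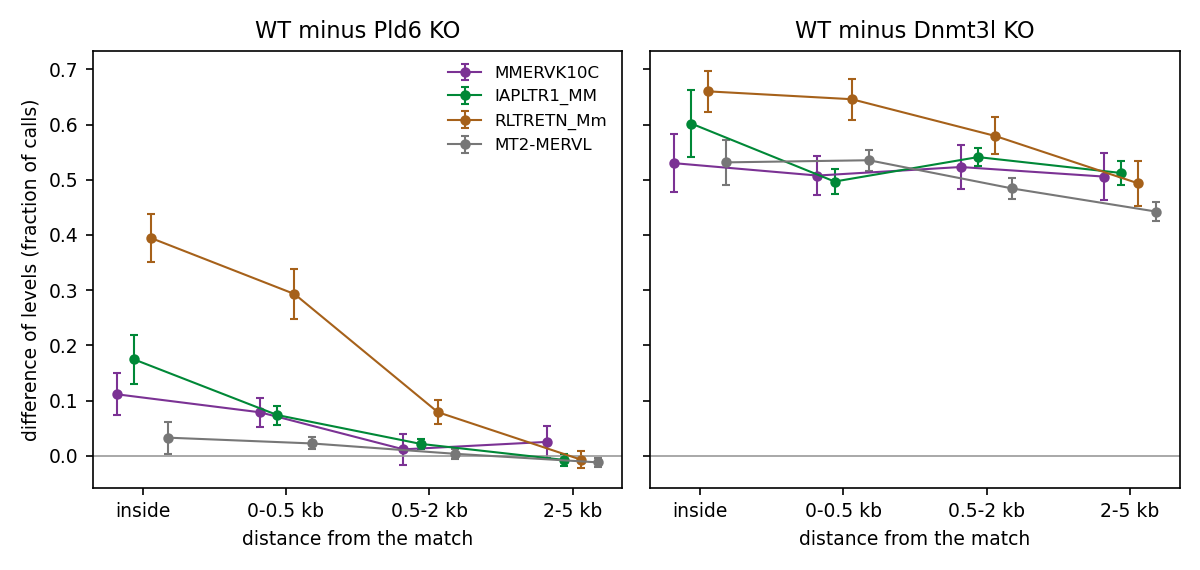
WT minus *Pld6* KO (left) and WT minus *Dnmt3l* KO (right) as a difference of methylation levels (fraction of calls, y axis) inside the match and at 3 distances (x axis), with 95% intervals over loci, for MMERVK10C and 3 other LTR amplicons. At MMERVK10C the *Pld6* KO difference falls from 0.111 inside to 0.0115 at 0.5 to 2 kb, and the *Dnmt3l* KO difference stays between 0.506 and 0.530.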

How the data were processed

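The authors made the libraries by post-bisulfite adaptor tagging, sequenced them from single ends, trimmed the reads and mapped them to unique regions of mm10 with Bismark. Per CpG site, the deposited files hold counts of methylated and unmethylated calls and a fraction, which is the share of methylated calls. The counts alone were used. Counts were pooled over sites and no coverage minimum was set.

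Matches were found with blastn 2.17.0 on GRCm38, whose chromosomes mm10 names, and overlapping matches kept the best score. A CpG counted once, for the match it lay in or nearest to. Wilson intervals (95%) cover counting error. Differences have 95% intervals computed from the spread over loci (matches within 10 kb are 1 locus). Simulated data tried only the difference between libraries inside the matches, with independent calls and the same shift of a locus in both. They do not show how the intervals hold for other contrasts or for changes that differ between loci. Fisher's exact test of scipy 1.17.1 was run on calls. The deposited counts give 1374, 1869 and 509 calls inside the matches, which limits *Dnmt3l* KO most.

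The named copies are the 10 with the largest smallest number of calls over the 3 libraries, the matches at 7 listed genes and all 7 amplicon CpG sites. The members and lists were chosen with earlier results of these data known. Alternatives changed the calls per site, the identity of matches, the weight of copies, single loci and the chromosomes. Sequences came from the amplicon and the reference.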

Additional observations from a re-analysis of the deposited data

How the results depend on the processing

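The differences from WT inside the matches and at 0 to 0.5 kb, and the excess of the *Pld6* KO difference inside over that at 2 to 5 kb, kept their direction and their side of 0 under all 7 alternatives. Inside, they ranged from 0.109 to 0.133 for *Pld6* KO and from 0.523 to 0.567 for *Dnmt3l* KO. At 2 to 5 kb the *Pld6* KO difference left out 0 with matches of 80% identity over 80% of the length (0.0288) and as the mean of single copies (0.0352). Against IAPLTR1_MM, the *Pld6* KO difference held 0 for sites with at least 2 calls (-0.0516), for sites with at most 20 calls (-0.0584) and as the mean of single copies (-0.0552), and had the opposite sign at 95% identity (0.0113), as did the *Dnmt3l* KO difference (0.0743), which left out 0 at 80% (-0.106). Against RLTRETN_Mm, *Pld6* KO held 0 at 95% (-0.311) and *Dnmt3l* KO at 80% (-0.0268). Against MT2-MERVL, the *Dnmt3l* KO difference had the opposite sign with at least 2 calls (0.0203), at 95% (0.0405), at 80% (0.0231) and without the locus with the most calls (0.000694). The causes were not tested.

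Copies lower by 0.3 in *Pld6* KO were 7 of 44 with at least 10 calls (2.78% of windows), and 9 of 48 at 95% identity and 24 of 145 at 80% (4.76% of windows). A decrease of 0.2 was found in 27 of 82 (32.9%, and 11.4% of windows). In *Dnmt3l* KO the counts were 44 of 61 with at least 3 calls (72.1%, close to the 66.1% of windows), 7 of 7 with at least 10 (54.5% of windows), and 16 of 17 at 95% and 54 of 64 at 80% (64.2% of windows). Pairs by the rule gave no value, except at 80%, where 1 paired match with 11 WT calls had any. No paired analysis was possible because the labels give 1 library per genotype. At 509 calls inside the matches, differences within *Dnmt3l* KO are the least certain.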
